A study of Drosophila melanogaster with 23 samples.

Results

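Dopamine, serotonin and octopamine are made in small groups of neurons of the fly brain, and the transcripts of 9 genes that make, package or take back these amines were followed here in adult heads. The 9 genes were Pu, ple, Ddc, Trhn, Tdc2, Tbh, Vmat, DAT and SerT. They were chosen by gene symbol, and all 9 were found among the 17559 genes listed for the single heterozygotes and wild type and among the 12623 genes listed for the double heterozygote. All 9 also passed the filter on low values and belong to the 9588 genes that were tested.

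Flies of 5 to 7 days post-pupation were compared. Wild type (w1118) served as control for heterozygotes named after the human gene: ASH1L/+ (ash1-mimic, fly ash1, a histone methyltransferase), WDFY3/+ (bchs58, fly bchs, an autophagy adaptor), CHD2/+ (chd1[1], fly Chd1) and CHD8/+ (kis1, fly kis), the last 2 being chromatin remodelers. Each of these 5 groups had 4 libraries, described as biological replicates, and CHD8/+, PP2R5D/+ (fly kis and wrd) had 3 libraries in a table scaled on its own. The animals are heterozygous, each mutant is 1 allele, a whole head was used, and the same 4 wild type libraries serve every comparison.

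Tyrosine hydroxylase, encoded by ple, and neuronal tryptophan hydroxylase, encoded by Trhn, carry out the first steps of dopamine and serotonin synthesis. Both need tetrahydrobiopterin, a cofactor whose synthesis starts with GTP cyclohydrolase I, the product of Pu. Ddc decarboxylates both intermediates to dopamine and serotonin, whereas Tdc2 turns tyrosine into tyramine and Tbh turns tyramine into octopamine. Vmat loads all of these amines into vesicles, and DAT and SerT clear dopamine and serotonin from the extracellular space. In insects ple, Ddc and Pu are not purely neuronal: epidermal cells use dopamine to harden and colour the cuticle, and Pu also feeds the pteridine pigments of the eye.

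The values are normalized counts (estimated read counts per gene, scaled by the authors between libraries), and all changes are differences in log2(normalized count + 1) with their standard error (SE). Libraries were primed at the 3′ end, so the place of that end matters for what a value can hold. On the BDGP6 assembly the 3′ ends of ple (3L:6713356-6719525, minus strand), SerT (2R:24404595-24411074, minus), DAT (2R:16558567-16565238, minus), Vmat (2R:13513132-13534251, minus), Tbh (X:7995697-8027394, plus) and Pu (2R:21175315-21182608, plus) overlap no other annotated gene within the last 500 bases of the gene span. Only the outermost 3′ end of a gene was checked, and ple has 2 annotated 3′ ends and Vmat 3. The 3′ ends of Ddc (2L:19116483-19120306, minus), Trhn (3L:1190384-1193173, minus) and Tdc2 (2R:6684745-6689974, minus) overlap CG10561, CG13912 and Rpp25 on the plus strand. The sources used here name a 3′ library kit marked FWD but do not state whether counting used strand. Gene spans and not exons were compared. Whether reads of the antisense neighbours enter the values of these 3 genes is therefore not known.

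The libraries held an estimated 2810000 to 9745000 reads in the 5 single tables and 3754000 to 6057000 in the double table, so that 1 read was worth about 0.637 to 1.93 normalized counts. This estimate takes the commonest low value as 1 read and lies below the mapped read totals that the study's methods state, so the worth of a read is uncertain. Tdc2, at 2.80 to 41.6, came within a few reads of 0 by this estimate. Replicate number marked a large part of the variation: it accounted for 81.3% of the first principal component of all genes and genotype for 9.8%. None of the mutated genes was called in its own mutant. Chd1 had 99.8 to 204 normalized counts in CHD2/+ and 167 to 402 in wild type (log2 change -1.01, SE 0.43, limma adjusted p = 0.66), and the log2 changes of ash1, bchs and kis in their mutants were -0.58, 0.17 and -0.22. Neuron, glia and photoreceptor markers were above 0 in every library. Cuticle markers stood higher in CHD8/+ replicates 2, 3 and 4 and CHD2/+ replicate 2 than in the other 16 libraries, with mean log2 levels of 5.47 to 6.54 against 3.29 to 4.64 over 12 markers. Muscle markers stood apart in the same 4 libraries, at 11.99 to 12.44 against 10.63 to 11.61 over 8 markers.

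To ask whether amine synthesis was altered at the transcript level, each gene was compared between each mutant and wild type with limma, adjusting over all genes. A gene was called when its adjusted p was under 0.05 and its change at least 1.5-fold. None of the 9 genes was called in any of the 4 mutants. ASH1L/+ had 0.0939% of all genes called, WDFY3/+ 0.0521%, CHD2/+ 0.188%, CHD8/+ 0.271% and the mean of the 4 mutants, which also held none of the 9, 0.229%. With replicate number as a block these shares were 0.209%, 0.25% and 0.741% in ASH1L/+, WDFY3/+ and CHD8/+, and again none of the 9 was among them. CHD2/+ is not in this statement because its replicate 2 did not vary together with that of wild type (Pearson r = 0.07). The block called 1 of the 9 genes and 1.21% of all genes there, as given in the last section. Without the block, the lowest limma adjusted p among the 9 genes was 0.47, for Pu in CHD2/+, and the other mutants had none under 0.998.

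At an unadjusted p under 0.05, 3 of the 9 genes stood out in CHD2/+ (Pu higher, Tbh and Vmat lower), where 6.93% of all genes did. None did in ASH1L/+, WDFY3/+ or CHD8/+, where 2.61%, 3.26% and 3.74% of all genes did. With the replicate block, ple in CHD8/+ also had an unadjusted p under 0.05, as 9.27% of all genes did in that fit. In the order ASH1L/+, WDFY3/+, CHD2/+, CHD8/+, the 9 genes had median log2 changes of 0.08, -0.09, 0.08 and -0.20, beside 0.03, 0.01, -0.02 and -0.01 for all genes. The SE of a change ran from 0.27 for Ddc to 0.63 for Tdc2, so that a gene could shift by more than 1.5-fold without being called. Fitted log2 changes of 1.77 for Pu and -1.23 for Tbh in CHD2/+ were not called. The lack of calls therefore does not show that the 9 genes were unchanged. In RNA from whole heads, fewer cells of a type and less RNA per cell cannot be told apart.

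**Figure D1:**
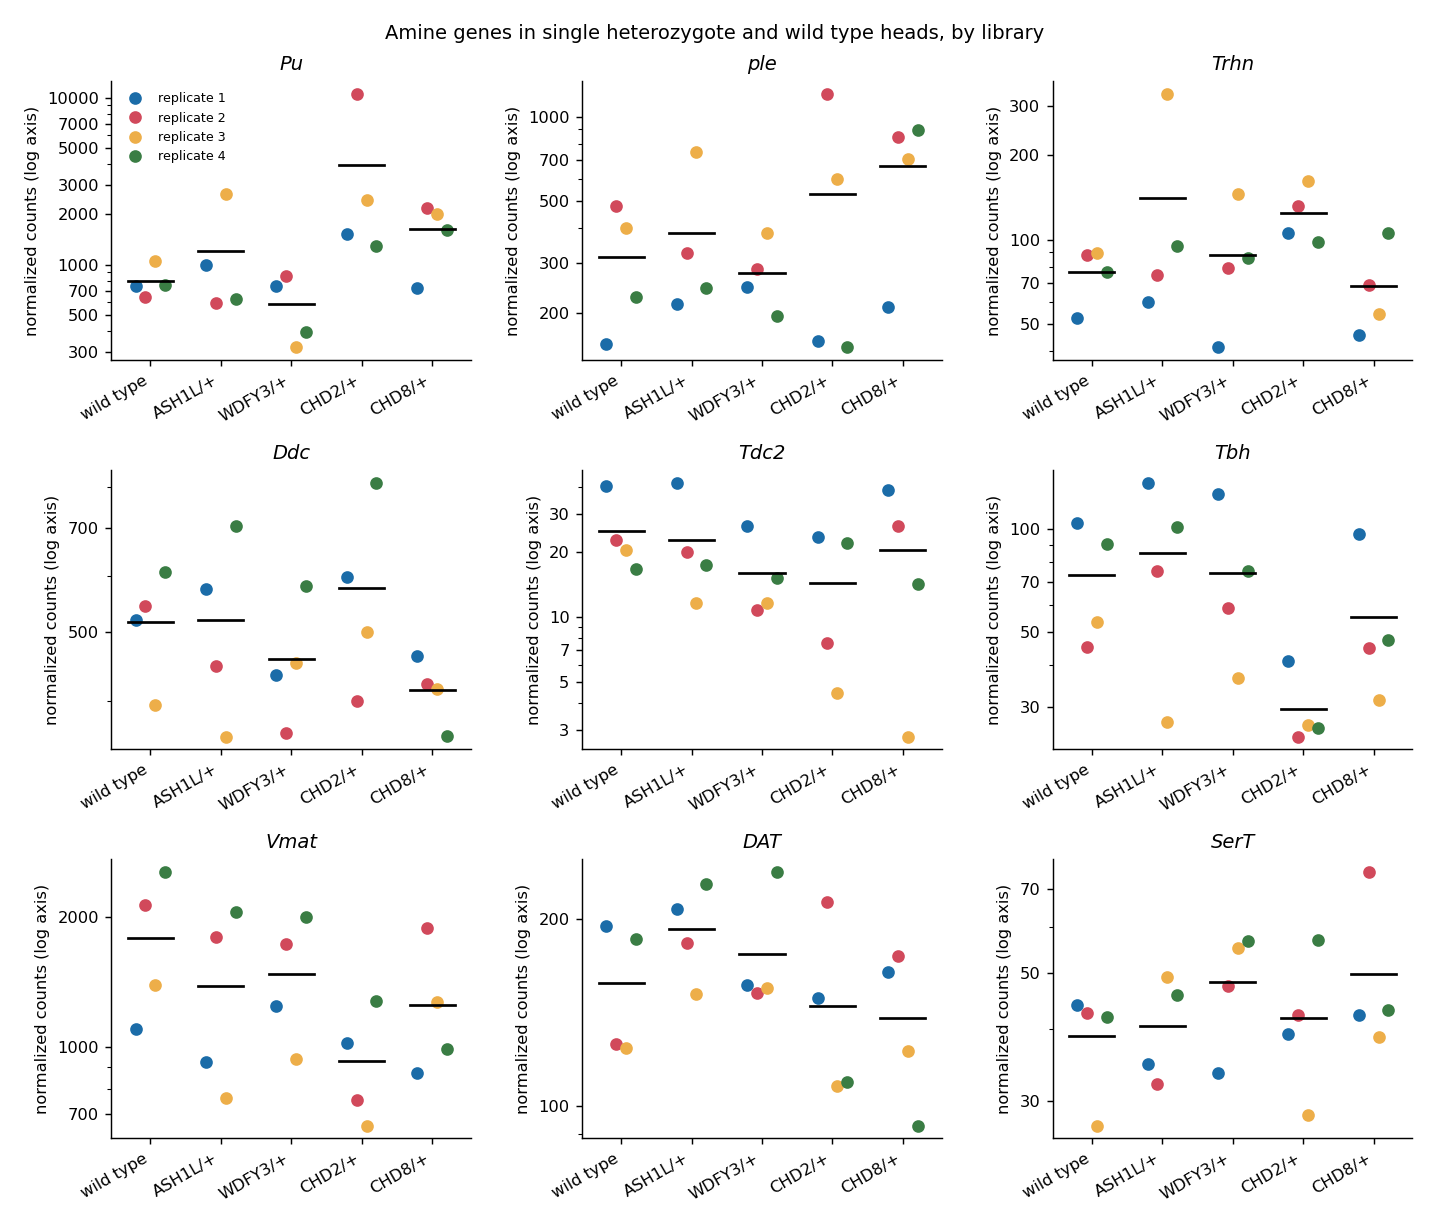
Normalized counts (log axis) of the 9 genes in each library of wild type and the 4 single heterozygotes, 1 panel per gene; points are libraries coloured by replicate number and lines are group means. In CHD2/+ all 4 libraries lie above all 4 of wild type for Pu (1294 to 10579 against 642 to 1054) and Trhn (97.8 to 162 against 52.4 to 89.5), and all 4 lie below for Tbh (24.6 to 40.9 against 45.2 to 104).

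Pu, which commits GTP to the cofactor that both hydroxylases need, gave the largest change of the 9 genes. Wild type had 740.9, 641.6, 1054.2 and 757.5 normalized counts in replicates 1 to 4, and CHD2/+ had 1530.8, 10578.9, 2450.2 and 1293.8. All 4 CHD2/+ libraries lay above all 4 of wild type, with replicate 2 far above the rest of its group. The log2 change was 1.77 (SE 0.58, 95% interval 0.57 to 2.97, limma adjusted p = 0.47), and it was 1.11 with CHD2/+ replicate 2 left out. CHD2/+ replicate 2 is also 1 of the 4 libraries with high cuticle markers, and the part of that cell type in the change was not tested beyond the values given for those libraries.

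Pu in CHD8/+ measured 726.3, 2197.7, 2011.0 and 1621.8, so that replicates 2, 3 and 4 were above every wild type library and replicate 1 was not (log2 change 0.94, SE 0.58, limma adjusted p = 0.998). ASH1L/+ had 998.8, 586.8, 2643.2 and 621.9, with a single high library, replicate 3. WDFY3/+ had 743.8, 851.4, 319.4 and 396.5 and gave the only log2 change of Pu below 0, -0.56 (SE 0.58). Ordered by mean, Pu stood at 578 ± 260 (SD, n = 4) in WDFY3/+, 799 ± 178 in wild type, 1213 ± 972 in ASH1L/+, 1639 ± 654 in CHD8/+ and 3963 ± 4438 in CHD2/+, and no neighbours in this order differed beyond their spread.

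Across the 6 pairs of mutants, 54 tests of the 9 genes gave no call and 5 had an unadjusted p under 0.05. Over all genes the called and the unadjusted shares were 0.0313% and 2.65% between ASH1L/+ and WDFY3/+, 0% and 6.34% between ASH1L/+ and CHD2/+, 0.0209% and 4.18% between ASH1L/+ and CHD8/+, 0.073% and 8.87% between WDFY3/+ and CHD2/+, 0.0417% and 4.74% between WDFY3/+ and CHD8/+, and 0.0104% and 4.42% between CHD2/+ and CHD8/+. Pu was in 3 of the 5. Its log2 difference was -2.33 for WDFY3/+ minus CHD2/+ (SE 0.58, limma adjusted p = 0.34), -1.50 for WDFY3/+ minus CHD8/+ (adjusted p = 0.94) and -1.43 for ASH1L/+ minus CHD2/+ (adjusted p = 0.73). Every WDFY3/+ library lay below every CHD2/+ library for this gene, and the share of all genes in such an order between mutants was not computed. The F test over all 4 mutants gave Pu an unadjusted p of 0.0069 and an adjusted p of 0.49 with limma, and the other 8 genes had an adjusted p of 0.99 (4.95% of all genes had an unadjusted p under 0.05, and 0.313% an adjusted one).

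Of the other genes of the cofactor, pr encodes the enzyme after Pu, Sptr the last one, Dhpr and Pcd regenerate the cofactor, and Catsup restrains both Pu and ple. None of these 5 was called. In this and the following lists, highest and lowest refer to the signed log2 change within the list. The median log2 change of the list was 0.07, 0.12, 0.31 and 0.21 in ASH1L/+, WDFY3/+, CHD2/+ and CHD8/+. pr was highest in CHD2/+ and CHD8/+, with log2 changes of 0.74 (SE 0.40) in each and limma adjusted p of 0.71 and 0.998. In both mutants 3 of 4 libraries were above all 4 of wild type, and replicate 1 was not (53.6 in CHD2/+, 57.7 in CHD8/+, 32.6 to 94.6 in wild type). pr was also highest in ASH1L/+ (0.41) and WDFY3/+ (0.32). Catsup was lowest in WDFY3/+ (-0.56), CHD2/+ (-0.27) and CHD8/+ (-0.15), and Dhpr in ASH1L/+ (-0.09).

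ple, the rate-limiting enzyme of dopamine synthesis, varied more between libraries of 1 genotype than between genotypes. Wild type had 154.0, 480.6, 399.9 and 226.6 normalized counts, CHD8/+ had 209.6, 845.1, 706.8 and 899.2, and CHD2/+ had 158.3, 1206.5, 599.7 and 150.3. CHD8/+ replicates 2, 3 and 4 were above all wild type libraries and replicate 1 lay among them, whereas CHD2/+ overlapped wild type at its low end and exceeded it in replicates 2 and 3. Each CHD8/+ library was higher than the wild type library of the same number, as was true of 10.4% of all genes. The log2 change in CHD8/+ was 1.01 (SE 0.61, 95% interval -0.26 to 2.29, limma adjusted p = 0.998; with the replicate block SE 0.41, unadjusted p = 0.024 and adjusted p = 0.43). That in CHD2/+ was 0.34 (SE 0.61).

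ASH1L/+ (215.5, 327.5, 745.3 and 245.0) and WDFY3/+ (246.9, 285.7, 385.9 and 193.9) overlapped wild type for ple, with log2 changes of 0.23 and -0.09. In ASH1L/+ replicate 3 was high for ple, Pu and Trhn alike.

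Values of ple and Pu were high in the 4 libraries in which both cuticle and muscle markers were high. In those 4 libraries ple ran from 707 to 1207, against 150 to 745 with a median of 246 in the other 16, and 3 of the 4 exceeded every other library. Pu ran from 1622 to 10579 there, against 319 to 2643 with a median of 751. Ddc went the other way: the 4 libraries had 357 to 424, all under the median of 511 in the other 16. The 16 cuticle markers summed to 1519 to 2662 in CHD8/+, 620 to 2490 in CHD2/+ and 337 to 724 in wild type, with up to 4 of the 16 at 0 in a library. By this sum the 4 libraries (1519 to 2662) overlapped the other 16 (337 to 1900), so that they stood apart only by the mean log2 level. The 10 muscle markers summed to 60150.5 to 83307 in the 4 libraries and to 20409 to 45312.5 in the other 16, with at most 1 of them at 0, and 8 of 8 tested had a change above 0 in CHD8/+. Cuticle and muscle cannot be told apart as companions of these values.

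Without these 4 libraries, a choice made after seeing the data, CHD8/+ kept only replicate 1. That single library gave differences from the 4 wild type libraries of -0.45 for ple and -0.11 for Pu on the log2 scale, although its ple value of 209.6 was above the 154.0 of wild type replicate 1. That of Pu in CHD2/+ was 1.11 without them (unadjusted p = 0.037, limma adjusted p = 0.94). With the mean cuticle marker level as a covariate the changes in CHD8/+ were -0.03 for ple and -0.44 for Pu, and that of Pu in CHD2/+ was 1.39 (limma adjusted p = 0.49). Because 3 of the 4 CHD8/+ libraries carry the high marker level, marker level and genotype cannot be told apart in CHD8/+.

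**Figure D2:**
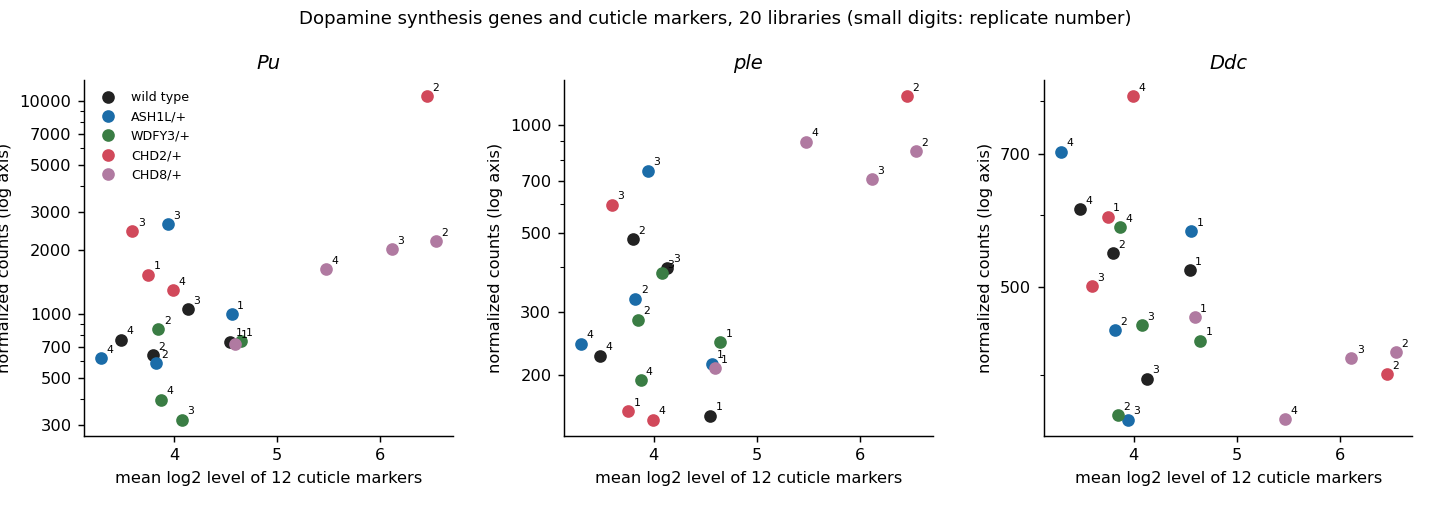
Normalized counts (log axis) of Pu, ple and Ddc in the 20 libraries against the mean log2 level of 12 cuticle markers; points are libraries coloured by genotype. The 4 libraries at 5.47 to 6.54 hold ple at 707 to 1207 and Pu at 1622 to 10579, and Ddc at 357 to 424.

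Trhn, the hydroxylase of serotonin neurons, was measured at 52.4, 88.2, 89.5 and 76.8 in wild type and 105.8, 132.0, 161.5 and 97.8 in CHD2/+. The 4 CHD2/+ libraries were all above the 4 of wild type, by a log2 change of 0.69 (SE 0.45, 95% interval -0.24 to 1.63, limma adjusted p = 0.71). Pu and Trhn were thus the 2 of 9 genes with all CHD2/+ libraries above wild type, an order found in 3.39% of all genes.

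ASH1L/+ had 60.1, 74.8, 331.8 and 94.8 normalized counts of Trhn, WDFY3/+ had 41.2, 79.1, 145.1 and 86.2, and CHD8/+ had 45.8, 68.8, 54.1 and 105.2. Each of these groups overlapped wild type, and the log2 changes were 0.53, 0.09 and -0.20. Replicate 3 was the highest library in 4 of 5 genotypes and replicate 1 the lowest in 4 of 5.

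Ddc, which completes both dopamine and serotonin, was the steadiest of the 9 genes, with an SD of 0.33 in log2 over the 20 libraries against a median of 0.63 for all genes. Wild type had 521.0, 544.4, 395.9 and 608.7. CHD8/+ had the lowest mean, from 462.6, 423.6, 416.9 and 357.5, and overlapped wild type in its lower part (log2 change -0.31, SE 0.27, limma adjusted p = 0.998). The changes in ASH1L/+, WDFY3/+ and CHD2/+ were -0.02, -0.18 and 0.13, with libraries from 357 to 811.

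Genes that make related amines were also not called. Hn (phenylalanine hydroxylase), Tdc1 (the tyrosine decarboxylase found mostly outside neurons), Hdc (histidine decarboxylase, for the photoreceptor transmitter histamine) and amd (a relative of Ddc used for cuticle) had medians of -0.21, -0.11, -0.21 and 0.09 in the 4 mutants. Tdc1 was highest in ASH1L/+ (0.28), WDFY3/+ (0.31) and CHD2/+ (-0.15), and amd in CHD8/+ (0.21). The lowest were Hn in ASH1L/+ (-0.38), amd in WDFY3/+ (-0.61) and Hdc in CHD2/+ (-0.43) and CHD8/+ (-0.45).

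Tbh, which makes octopamine from tyramine, was the member with the clearest low values. Wild type had 104.2, 45.2, 53.5 and 90.6 normalized counts, and CHD2/+ had 40.9, 24.6, 26.6 and 26.1. All 4 CHD2/+ libraries were below all 4 of wild type, which was so for 2.15% of all genes, and Tbh was the only one of the 9 genes in that position. The log2 change was -1.23 (SE 0.47, 95% interval -2.20 to -0.26, limma adjusted p = 0.60), and -1.43 to -1.04 with single libraries left out.

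The other mutants overlapped wild type for Tbh, with 136.9, 75.5, 27.2 and 101.5 in ASH1L/+, 127.1, 58.8, 36.6 and 75.5 in WDFY3/+, and 96.7, 44.9, 31.6 and 47.4 in CHD8/+. The log2 changes were 0.08, -0.04 and -0.44. By mean, Tbh stood at 29.5 ± 7.65 (SD, n = 4) in CHD2/+, 55.1 ± 28.6 in CHD8/+, 73.4 ± 28.5 in wild type, 74.5 ± 38.5 in WDFY3/+ and 85.3 ± 46.2 in ASH1L/+, and no neighbours in this order were free of overlap. Between mutants, Tbh in ASH1L/+ minus CHD2/+ was 1.31 (limma adjusted p = 0.73) and in WDFY3/+ minus CHD2/+ 1.195 (adjusted p = 0.53).

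Tdc2, the neuronal enzyme ahead of Tbh in the same pathway, lay nearest to the worth of single reads. It had 40.4, 22.6, 20.4 and 16.6 normalized counts in wild type and 23.3, 7.55, 4.43 and 21.9 in CHD2/+. The groups overlapped, CHD2/+ replicates 2 and 3 being below every wild type library, and the log2 change was -0.96 (SE 0.63, limma adjusted p = 0.71).

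CHD8/+ had 38.4, 26.4, 2.80 and 14.2 normalized counts of Tdc2, WDFY3/+ had 26.2, 10.8, 11.6 and 15.1, and ASH1L/+ had 41.6, 20.04, 11.6 and 17.3. The log2 changes were -0.64, -0.63 and -0.21 (SE 0.63 each), and all 3 groups overlapped wild type. Each WDFY3/+ library was below the wild type library of the same number, which held for 8.77% of all genes.

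Both octopamine genes varied with replicate number, as did ple. Tdc2 and Tbh were highest in replicate 1 in all 5 genotypes, a pattern of 9.16% of all genes. Replicate number accounted for 55.9% of the sum of squares of Tdc2 and 46.5% of that of Tbh, and genotype for 14.8% and 39.6%, beside medians of 39.5% and 18.5% over all genes. The share of replicate number was 50.0% for ple, and 61.8% of all genes had a lower one than Tbh. Pu was the opposite case, with 51.7% for genotype and 10.5% for replicate number.

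Tbh was also high where neuron markers were high. In the 7 libraries with a mean log2 neuron marker level above 10 (replicate 1 of wild type, ASH1L/+, WDFY3/+ and CHD8/+, and replicate 4 of wild type, ASH1L/+ and WDFY3/+) Tbh ran from 75.5 to 137, with 6 of 7 above the highest of the other 13, which ran from 24.6 to 75.5. Tdc2 ran from 15.1 to 41.6 in the 7 and from 2.80 to 26.4 in the 13. Trhn went the other way, with a median of 60.1 in the 7 and 97.8 in the 13. The medians were 1245 and 1268 for Vmat, 42.2 and 42.6 for SerT, and 195 and 149 for DAT. None of the 4 CHD2/+ libraries was among the 7: their mean log2 neuron marker level was 9.11 to 9.69, against 9.39 to 10.5 in wild type, and their summed markers were 13045 to 16207 against 12567 to 32126, with none of the 12 at 0. Of the 12 markers 10 had a change below 0 in CHD2/+.

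With the neuron marker level as a covariate, added after seeing the data, the log2 change of Tbh in CHD2/+ was -0.62 (limma adjusted p = 0.64), that of Vmat -0.89 and that of Pu 1.48. The change of Tbh was thus nearer to 0 with the markers in the fit, and those of Vmat and Pu moved less.

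**Figure D3:**
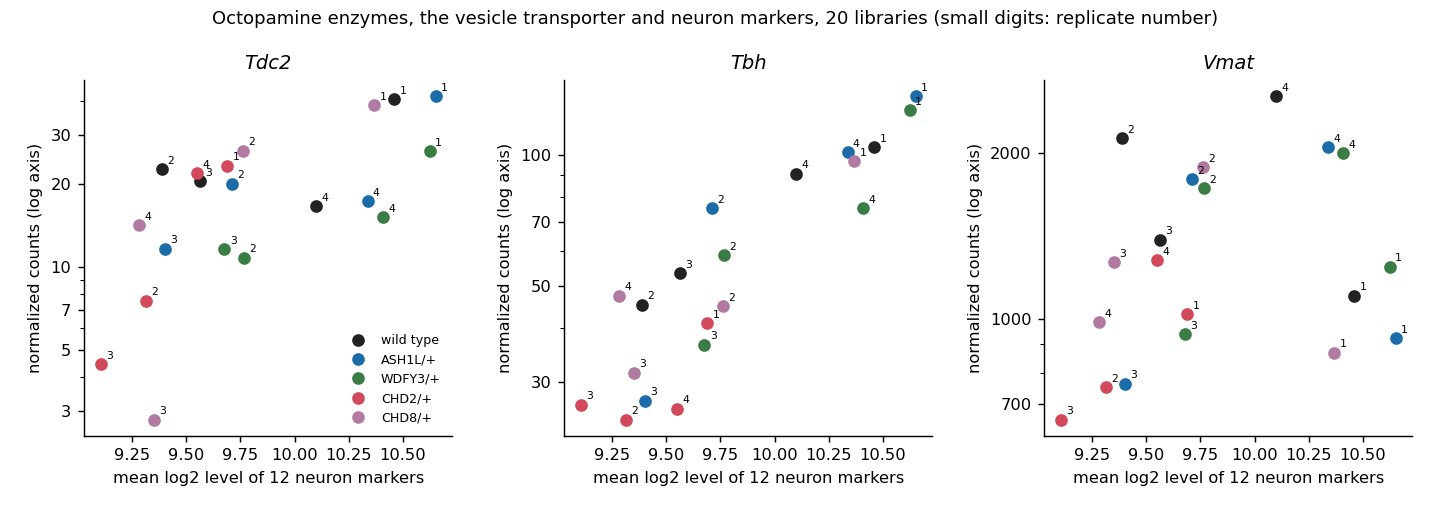
Normalized counts (log axis) of Tdc2, Tbh and Vmat in the 20 libraries against the mean log2 level of 12 neuron markers; points are libraries coloured by genotype. Tbh reaches 75.5 to 137 in the 7 libraries above a marker level of 10 and 24.6 to 75.5 in the other 13, and the 4 CHD2/+ libraries lie between marker levels of 9.11 and 9.69.

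Vmat, the vesicular transporter that all monoamine neurons share, had 1103.3, 2132.2, 1393.1 and 2543.0 normalized counts in wild type and 1020.7, 753.3, 657.1 and 1278.6 in CHD2/+. CHD2/+ replicates 1, 2 and 3 were below all of wild type, and replicate 4 overlapped it. The log2 change was -0.92 (SE 0.38, 95% interval -1.71 to -0.14, limma adjusted p = 0.65).

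ASH1L/+ had 922.7, 1796.2, 763.7 and 2052.8 normalized counts of Vmat, and CHD8/+ had 868.5, 1888.3, 1267.9 and 987.5. In these mutants each library was lower than the wild type library of the same number, as in 8.59% and 9.32% of all genes, but the ranges overlapped and the log2 changes were -0.42 and -0.50 (SE 0.38). WDFY3/+, at 1244.8, 1729.8, 939.4 and 2001.5, was lower in 3 of 4 numbers, with a change of -0.26. The mean of the 4 mutants differed from wild type by -0.53 for Vmat (SE 0.30, limma adjusted p = 1.00).

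The plasma membrane transporters varied little. DAT, which returns dopamine to the neuron, had 195.3, 125.9, 124.2 and 186.3 in wild type and 207.8, 183.5, 151.3 and 228.6 in ASH1L/+, where each library was higher than that of the same number (10.9% of all genes). The ranges overlapped, and the log2 change was 0.30 (SE 0.29, limma adjusted p = 0.999). The changes in WDFY3/+, CHD2/+ and CHD8/+ were 0.16, -0.15 and -0.20, with libraries from 92.9 to 239.

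SerT, the serotonin transporter, had 43.98, 42.6, 27.1 and 42.0 normalized counts in wild type and between 28.3 and 74.9 in the mutants. Its log2 changes were 0.06, 0.30, 0.08 and 0.32 in ASH1L/+, WDFY3/+, CHD2/+ and CHD8/+ (SE 0.29 each), and all groups overlapped. With SDs of 0.38 and 0.35 in log2 over 20 libraries, DAT and SerT were nearer to Ddc than to Pu (1.14), ple (0.94) or Tdc2 (0.91).

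**Figure D4:**
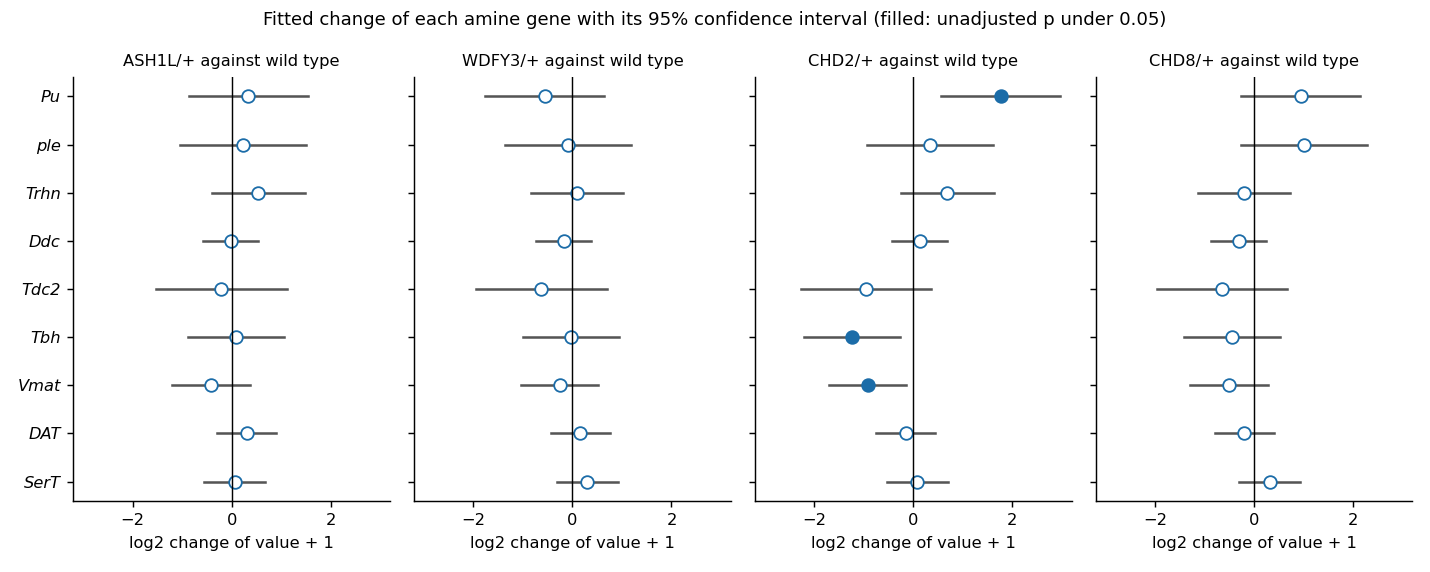
Log2 change of each of the 9 genes against wild type in the 4 single heterozygotes, with the 95% interval of the limma fit over 20 libraries; filled symbols have an unadjusted p under 0.05. Only Pu (1.77), Tbh (-1.23) and Vmat (-0.92) in CHD2/+ are filled, and none of the 36 changes was called.

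The same comparisons were made for genes that receive or end the amine signal. Among 8 tested genes of amine inactivation, recycling and tanning none was called. ebony (e), which conjugates dopamine and histamine to β-alanine, measured 71.3, 80.9, 112.5 and 82.7 in CHD8/+ and 49.8, 28.0, 58.9 and 41.3 in the control. The groups did not overlap, as in 1.91% of all genes, and the log2 change was 0.98 (SE 0.48, limma adjusted p = 0.998). Like ple, e is used in the cuticle, whose markers were high in 3 of these 4 CHD8/+ libraries. Over the 20 libraries e was highest in WDFY3/+ replicate 3 (148), which was not among the 4 libraries with high cuticle markers. It was next highest in CHD2/+ replicate 2 (145), which was among them. The part of cuticle content in the change of e was not tested.

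The medians of that list were 0.14, 0.25, 0.07 and 0.34 in ASH1L/+, WDFY3/+, CHD2/+ and CHD8/+. e was also the highest of the list in ASH1L/+ (0.40) and WDFY3/+ (0.72), and black (b), which supplies β-alanine, was highest in CHD2/+ (0.78). The lowest were w (an ABC transporter of pigment precursors) in ASH1L/+ (-0.62), Balat (a β-alanine transporter) in WDFY3/+ (-0.91) and CHD2/+ (-0.57), and tan (t, which reverses ebony's reaction) in CHD8/+ (-0.11).

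Receptor transcripts stood lower in CHD2/+ as a group of values, although none was called. All 4 dopamine, 5 serotonin and 8 octopamine or tyramine receptor genes had a log2 change below 0 in CHD2/+, where 48.4% of all genes had a change above 0. Their medians were -0.60, -0.66 and -0.61, beside -0.02 for all genes and -0.49 for the 12 neuron markers. The 9 photoreceptor markers were also all below 0 in CHD2/+, with a median of -0.45 and 2 of 9 at an unadjusted p under 0.05. In CHD8/+ 4 of 4, 3 of 5 and 7 of 8 were below 0, with medians of -0.55, -0.39 and -0.36, and 48.8% of all genes had a change above 0. In ASH1L/+ the medians were 0.14, 0.32 and 0.06, and in WDFY3/+ 0.34, 0.08 and 0.02. The part of photoreceptor content in these values was not tested. That of neuron content was not tested beyond a fit with neuron markers, given for 5-HT1A in the last section.

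Octbeta3R, a receptor for octopamine that raises cAMP, had the strongest statistic of the receptors. Wild type had 194.4, 141.1, 109.4 and 244.9 normalized counts of it, beside 88.5, 101.1, 56.2 and 51.9 in CHD8/+ and 88.5, 80.1, 74.1 and 125.1 in CHD2/+. All 4 CHD8/+ libraries were below all 4 of wild type (1.11% of all genes), and 3 of 4 in CHD2/+ were. The log2 change in CHD8/+ was -1.19 (SE 0.32, 95% interval -1.86 to -0.52, limma adjusted p = 0.23). With replicate number as a block it passed the threshold (adjusted p = 0.038), as 0.741% of all genes did in that fit.

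Octbeta3R in CHD2/+ changed by -0.86 (SE 0.32, limma adjusted p = 0.59), and its mean over the 4 mutants was -0.70 from wild type (SE 0.25, adjusted p = 0.98). ASH1L/+, at 110 to 156, and WDFY3/+, at 93.6 to 213, overlapped wild type for it, with changes of -0.32 and -0.44 that were the lowest of the octopamine and tyramine list in each. ASH1L/+ minus CHD8/+ was 0.87 and WDFY3/+ minus CHD8/+ 0.75, with limma adjusted p of 0.93 and 0.94.

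5-HT1A, a serotonin receptor that lowers cAMP, had 302.9, 219.6, 107.7 and 343.6 in wild type and 101.97, 88.9, 64.5 and 104.3 in CHD2/+. All 4 CHD2/+ libraries were below all 4 of wild type, as in 2.15% of all genes, and the log2 change was -1.32 (SE 0.47, limma adjusted p = 0.57). The same order held in CHD2/+ for 5-HT7 (10.8 to 20.8 against 21.2 to 51.7) and TyrR (11.9 to 21.9 against 23.1 to 54.4). Oct-TyrR, a receptor for tyramine and octopamine, had 47.0, 28.0, 15.7 and 36.8 in wild type and 22.2, 3.78, 13.3 and 10.4 in CHD2/+. CHD2/+ replicates 2, 3 and 4 were below all of wild type, and the log2 change was -1.40 (SE 0.48, limma adjusted p = 0.54).

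The remaining extremes of the receptor lists had wider errors. Dop2R, the inhibitory dopamine receptor, was the lowest of its list in CHD2/+ (-0.89, SE 0.77) and the highest in ASH1L/+ (0.70), with 63.5 to 411 in wild type. Dop1R2, a stimulatory one, was the lowest in CHD8/+ (-0.91, SE 0.55), ASH1L/+ (-0.08) and WDFY3/+ (0.07), and DopEcR, which also binds ecdysone, was the highest in WDFY3/+ (0.38), CHD2/+ (-0.34) and CHD8/+ (-0.04).

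Of the serotonin receptors, 5-HT7 was lowest in ASH1L/+ (-0.20), WDFY3/+ (-0.54) and CHD8/+ (-0.53), 5-HT2B highest in ASH1L/+ (0.50) and CHD8/+ (0.29), and 5-HT2A in WDFY3/+ (0.32) and CHD2/+ (-0.08). The highest of the octopamine and tyramine receptors were Octalpha2R in ASH1L/+ (0.43) and CHD2/+ (-0.21), Octbeta1R in WDFY3/+ (0.20) and TyrRII in CHD8/+ (0.04).

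Between mutants no gene of these lists was called either. The white gene (w) had a log2 difference of -1.30 for ASH1L/+ minus CHD8/+, and CHD2/+ was lower than WDFY3/+ by differences of 1.41 for 5-HT1A, 0.82 for Octbeta1R, 0.65 for Octbeta2R and 1.46 for Oct-TyrR. Differences of ASH1L/+ minus CHD2/+ were 1.179 for 5-HT1A, 0.96 for 5-HT2B and 1.70 for Oct-TyrR, and Oct-TyrR differed by -1.176 for CHD2/+ minus CHD8/+. These had an unadjusted p under 0.05, and their limma adjusted p ran from 0.50 upward.

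In CHD8/+, PP2R5D/+ the levels cannot be set beside those of the other groups, because its table was scaled apart and lists fewer genes. Each gene was therefore given as its log2 ratio to the 9 genes summed in the same library, with no test. Trhn had 21.8, 20.2 and 19.1 normalized counts there, or ratios of -7.39, -7.98 and -7.86. These lay below all 8 libraries of CHD8/+ (-6.43 to -5.31) and wild type (-5.89 to -5.31), and the other 8 genes overlapped those 8 libraries. The share of all genes below these 8 libraries was not computed.

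Relative to the ribosomal protein gene RpL32, Trhn, Ddc and Vmat were below all 8 libraries. RpL32 itself stood at 7208 to 9181 normalized counts in the double heterozygote and at 2203 to 3733 in the 8 libraries, in tables scaled apart. The share of all genes outside the 8 libraries was not computed for any reference. Relative to the summed neuron markers Trhn (-9.33, -10.47 and -10.51) overlapped CHD8/+, which reached -9.41, and Tbh (-7.28, -7.56 and -7.18) was above all 8, which ran from -9.09 to -7.89. Tbh had 90.6, 151.5 and 191.9 normalized counts and Tdc2 had 19.3, 24.0 and 29.2. The genotype and the separate processing of its table cannot be told apart, and the 16 cuticle markers summed to 4164 to 11998 in this table's scale.

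The other members of the double heterozygote gave 846.9, 1986.4 and 1865.1 for Pu, 222.7, 511.6 and 623.7 for ple and 679.7, 652.0 and 469.4 for Ddc. They gave 1629.2, 1497.5 and 987.0 for Vmat, 96.6, 189.3 and 202.7 for DAT and 56.0, 82.4 and 39.5 for SerT. Replicate 1 was the lowest library for Pu, ple, DAT, Tdc2 and Tbh, and the highest for Ddc, Trhn and Vmat.

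**Figure D5:**
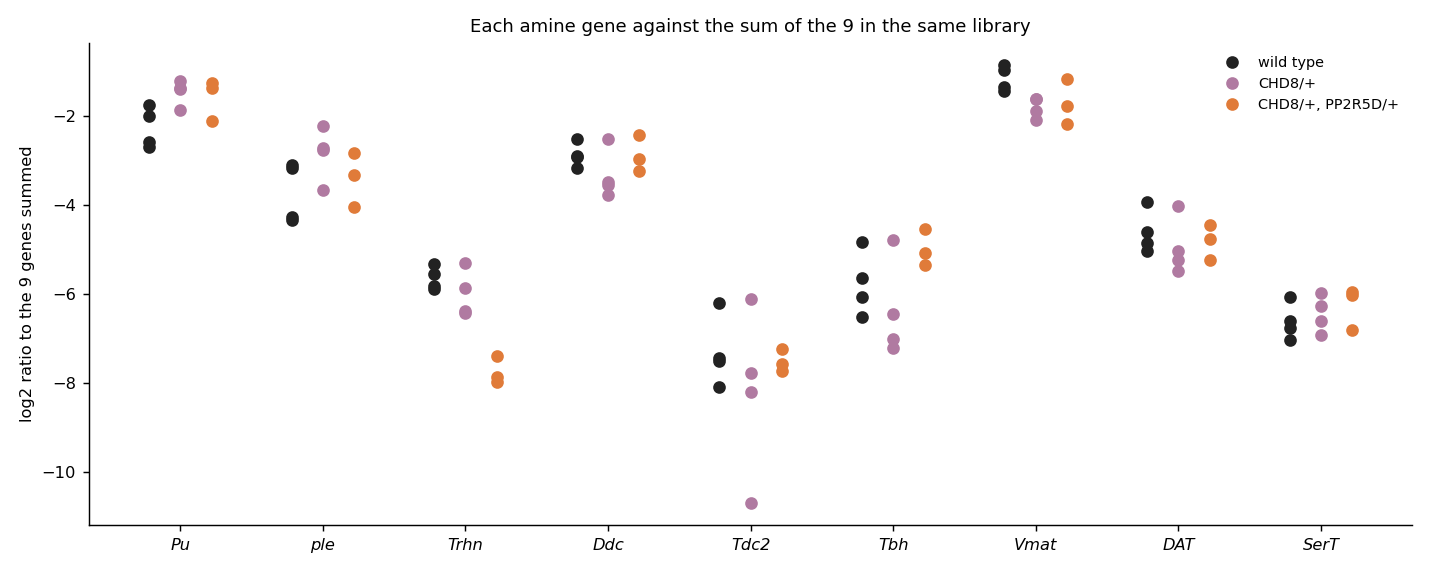
Log2 ratio of each of the 9 genes to the sum of the 9 in the same library, for wild type (4 libraries), CHD8/+ (4) and CHD8/+, PP2R5D/+ (3). Trhn in the double heterozygote, at -7.98 to -7.39, is below the other 8 libraries, and the other 8 genes overlap them. The share of all genes outside these 8 libraries was not computed.

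Genes with the most similar pattern over the 20 libraries, after the means of genotype and replicate number were taken off, are given as a description. They were Idh3b, Mp20 and CG4957 for ple (Pearson r 0.89, 0.89 and 0.88), su(w[a]), Xe7 and Gagr for Ddc (0.95, 0.93 and 0.93), and c(2)M, CG8870 and Obp57b for Trhn (0.93, 0.92 and 0.91). For Vmat they were Rgk2, Hk and crp (0.96, 0.94 and 0.94), for DAT aru, D and CG42258 (0.92, 0.90 and 0.89) and for SerT Optix, Fum2 and CG33655 (0.82, 0.81 and 0.81). For Tdc2 they were Atg101, mon2 and CG12091 (0.92, 0.90 and 0.87), for Tbh hook, Rim2 and ocm (0.86, 0.85 and 0.85), and for Pu FBgn0004028, mt:ND5 and mt:srRNA (0.93, 0.92 and 0.92). None of the 9 genes was among the 3 closest of another. All of these values share libraries and depth.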

How the data were processed

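RNA of adult heads was sequenced from 3′ ends in 23 libraries. The authors assigned reads to BDGP6 transcripts with Salmon 0.12.0, collated genes with tximport and scaled them with DESeq2, whose model had a batch term. The batch of each library is not given in the sources used here. The deposited signal values are normalized counts, not whole numbers, so no count model was fitted. Only 14.0% to 36.2% of values above 0 were within 0.05 of a whole read, by the estimated worth of 1 read. Depth was estimated by taking the commonest low value of a library as 1 read.

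From these, log2(value + 1) was fitted with limma 3.58.1 (R 4.3.3), the variance following a trend in level, 1 mean per genotype over 20 libraries, for 9588 genes with at least 10 in at least 4 libraries, and p-values were adjusted by Benjamini-Hochberg within each comparison. Adjusted and unadjusted p-values are two-sided and measure the spread between libraries. matplotlib 3.10.9 drew the plots, pandas 2.3.3 and numpy 2.4.6 (Python 3.11.15) built tables, and the fit was tested on simulated data. 17253 of 17559 and 12526 of 12623 gene IDs matched a symbol. Coordinates come from a later Ensembl annotation of the same assembly. Members and lists were chosen with earlier results of these data known. Other genes were named when called, at either end of their list in 1 mutant against wild type, or with an unadjusted p under 0.05. TyrR was named because its CHD2/+ libraries all lay below wild type. AANAT1 and stw matched no row and were not analysed here.

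Replicate numbers pair libraries where every same-numbered pair deviated together (r over 0.1). Pairs with wild type had r of 0.78, 0.34, 0.49 and 0.64 in ASH1L/+, 0.74, 0.32, 0.44 and 0.56 in WDFY3/+, 0.73, 0.25, 0.28 and 0.21 in CHD8/+, and 0.33, 0.07, 0.28 and 0.46 in CHD2/+, which is therefore not paired. Alternatives varied the added value, filter, scaling, variance trend, replicate block, covariates and libraries used.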

Additional observations from a re-analysis of the deposited data

Results flagged for a closer look

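A library was flagged when its gap to its nearest neighbour exceeded Dixon's critical share of the group's range for 4 libraries. For normally distributed values chance gives about 1 in 20. The gaps were taken on normalized counts, not on the log2 scale of the changes. Of 45 combinations of gene and genotype, 6 held such a library. They were Trhn in ASH1L/+ replicate 3 (332 normalized counts, the others 60.1 to 94.8), SerT in wild type replicate 3 (27.1, the others 42.0 to 43.98), SerT in CHD8/+ replicate 2 (74.9, the others 38.7 to 43.0), DAT in WDFY3/+ replicate 4 (239, the others 152 to 157), Tbh in CHD2/+ replicate 1 (40.9, the others 24.6 to 26.6) and Pu in CHD2/+ replicate 2 (10579, the others 1294 to 2450).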

How the results depend on the processing

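Over 36 member changes under 22 alternatives each (792 values), 740 kept direction and side of the threshold, 1 passed it and 51 changed sign; the cause was not tested. The settings without replicate number 2 and without the 4 cuticle-high libraries and those with neuron markers were chosen after seeing the data. Counts of called genes with the replicate block were 20, 24, 116, 71 and 47 for ASH1L/+, WDFY3/+, CHD2/+, CHD8/+ and the mean of the 4 mutants, against 9, 5, 18, 26 and 22. The block called 1 member, Tbh in CHD2/+ (limma adjusted p = 0.038), and 5-HT1A there (0.044, its log2 change -0.70 with neuron markers instead). The CHD2/+ and wild type libraries do not meet the pairing rule (replicate 2, r = 0.07). The block also called Tbh in ASH1L/+ minus CHD2/+ (limma adjusted p = 0.047), along with 0.355% of all genes there. It changed no other member's call. In the same order, other counts were 4, 3, 6 and 13 with only the mutant and wild type, and 5, 3, 3, 6 and 8 without replicate number 2. Neuron markers gave 16, 21 and 38 in ASH1L/+, WDFY3/+ and the mean, and with the block 16, 26, 51 (CHD8/+) and 55. Without the cuticle-high libraries they were 8 in CHD2/+, 1 in CHD8/+ and 10 in the mean. WDFY3/+ had 3 with no filter and 8 after quantile normalization, and CHD8/+ 17 with no filter and 6 with the cuticle covariate. Leaving out 1 library gave 2 to 5 in WDFY3/+ (fewest without wild type replicate 2), 7 to 18 in CHD2/+ (without wild type replicate 4), 7 to 41 in CHD8/+ (without replicates 4 and 1) and 10 to 24 in the mean.

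The members' median was -0.28 in WDFY3/+ with neuron markers, and -0.24 in CHD2/+ without the cuticle-high libraries, or -0.24 to 0.13 without single libraries. Sign changes were, without replicate number 2, Ddc 0.068 and Tbh -0.13 in ASH1L/+ and ple 0.13 in WDFY3/+; with neuron markers, Tbh -0.12 in ASH1L/+, ple 0.28 in WDFY3/+ and ple -0.36 and DAT 0.075 in CHD2/+; with these and the block, Tbh -0.049 in ASH1L/+, ple 0.083 and DAT -0.10 in WDFY3/+, DAT 0.35 in CHD2/+ and 0.0041 in CHD8/+. Without the cuticle-high libraries they were ple -0.24 in CHD2/+ and, in CHD8/+, ple -0.45, DAT 0.093, Tdc2 0.68, Tbh 0.48 and Pu -0.11. With the cuticle covariate ple was -0.028 and Pu -0.44 in CHD8/+, and with quantile normalization Tbh was 0.0063 in WDFY3/+. Ranges over 0 without single libraries were, in ASH1L/+, ple -0.15 to 0.48, Ddc -0.18 to 0.15, SerT -0.10 to 0.16, Tdc2 -0.54 to 0.045, Tbh -0.22 to 0.55 and Pu -0.14 to 0.59, in WDFY3/+ ple -0.38 to 0.16, Trhn -0.19 to 0.40 and Tbh -0.34 to 0.25, in CHD2/+ ple -0.24 to 0.76, Ddc -0.053 to 0.29 and SerT -0.083 to 0.25, and in CHD8/+ Tdc2 -1.08 to 0.043. In the double heterozygote 3 members lay outside the 8 libraries with RpL32 and 1 otherwise. Depth limits Tdc2 most.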
